A study of Mus musculus with 9 samples.

Results

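The 10 shelterin and telomere maintenance genes described here were taken by name from the 53379 gene identifiers of each count table. They are the 7 genes of mouse shelterin (Terf1, Terf2, Terf2ip, Tinf2, Acd, Pot1a and Pot1b), Tert and Dkc1 of telomerase, and Atrx. The rule used gene names only, though the members were chosen with earlier results of these data known. All 10 passed the low-count filter. All are protein coding, and gene positions below are those of GENCODE M21 on GRCm38.

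Telomeres, the repeat-capped ends of chromosomes, are shielded by shelterin, a complex that keeps the ends from being sensed as broken DNA. When that cover is lost, the damage kinases ATM and ATR signal to p53 and its target p21. Telomerase rebuilds the repeats in germ, stem and progenitor cells, and the chromatin remodeller ATRX deposits histone H3.3 at telomeric repeats.

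The cells were GFP-positive forebrain cells of C57Bl6DBa2 mouse embryos, labelled as neural progenitors, sorted at E16.5 after in utero electroporation at E14.5. Of the 9 libraries, 3 came from cells given pCAGGS-GemC1, 3 from cells given a plasmid the labels spell pCAAGS-Mcidas, and 3 from cells given H2B-GFP without either factor. GemC1 and Mcidas, both nuclear proteins of the Geminin family, switch on the making of multiciliated cells. By its title, the series is about ependymal cells, the ciliated lining of the brain ventricles, and a damage response through p53 and p21 in their development. The labels do not say how many embryos went into a library, nor whether the H2B-GFP plasmid was added to each of the factor plasmids.

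Total counts ranged from 22914704 to 41163917 per library, and levels are given as CPM, each library's counts scaled to a common total after normalization. Gmnc, which encodes GemC1, had 6591 to 9651 counts in GemC1 libraries, 0 to 9 in Mcidas libraries and 0 in each GFP library, and Mcidas had 1779 to 2222, 13457 to 16672, and 22 to 27 counts in the same order of groups. All 10 neural progenitor markers, Sox2, Pax6 and Nes among them, were counted in each group, with a summed level of 1474 to 1628 CPM in GemC1, 1079 to 1355 CPM in Mcidas and 1042 to 1340 CPM in GFP libraries. Markers of later stages were counted too. In the same order, 8 intermediate progenitor markers summed to 1336 to 1533, 1208 to 1564 and 1524 to 1560 CPM. The sums of 10 excitatory neuron markers were 4588 to 5063, 4857 to 5665 and 5595 to 6577 CPM. Such sums do not give the share of each cell type. The tables of the Mcidas libraries carry another year number in their names than the rest. If that number marks a batch, its effect and that of Mcidas cannot be told apart.

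Before the values, 3 promoters are shown, each 250 bases before to 50 bases after an annotated start, from RefSeq on GRCm38.p6. Pot1a and Pot1b are shown because these duplicated genes stood several-fold apart in level, and Atrx because it was the member that passed the test in a comparison. Capitals mark matches to any of 6 short motifs on either strand: CRE TGACGTCA, CCAAT, the GC box GGGCGG, the NRF1 core GCATGCG, the ETS core CCGGAAGT and the E-box CACGTG. Windows are Pot1a at chr6:25809169-25809468, Pot1b at chr17:55712575-55712874 and Atrx at chrX:105929323-105929622, all on the minus strand and all written 5′ to 3′.
Pot1a: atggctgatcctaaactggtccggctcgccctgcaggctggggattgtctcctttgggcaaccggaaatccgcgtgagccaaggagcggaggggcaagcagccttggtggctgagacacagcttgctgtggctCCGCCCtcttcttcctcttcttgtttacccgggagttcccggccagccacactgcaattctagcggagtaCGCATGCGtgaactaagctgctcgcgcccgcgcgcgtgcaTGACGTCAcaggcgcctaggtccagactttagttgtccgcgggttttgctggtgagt
Pot1b: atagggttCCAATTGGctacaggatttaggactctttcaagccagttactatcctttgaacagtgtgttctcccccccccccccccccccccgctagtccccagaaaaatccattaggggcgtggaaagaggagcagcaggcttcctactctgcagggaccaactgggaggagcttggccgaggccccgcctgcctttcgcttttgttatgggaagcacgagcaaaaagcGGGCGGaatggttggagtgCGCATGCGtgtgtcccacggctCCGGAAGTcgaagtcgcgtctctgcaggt
Atrx: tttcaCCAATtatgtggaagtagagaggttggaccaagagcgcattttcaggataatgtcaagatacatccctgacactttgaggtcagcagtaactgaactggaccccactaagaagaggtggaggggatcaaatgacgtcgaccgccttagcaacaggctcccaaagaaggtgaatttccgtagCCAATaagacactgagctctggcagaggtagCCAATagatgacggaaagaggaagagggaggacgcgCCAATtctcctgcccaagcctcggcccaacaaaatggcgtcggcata

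Both Pot1 windows held the NRF1 core, matched on both strands by overlapping letters within CGCATGCG. A run of 10 bases, CGCATGCGTG, was the longest the pair of windows shared. The core was found in 3.58% of the 32851 promoter windows of the table, and in 2 of the 9 members with a window (Terf2, Terf2ip, Tinf2, Acd, Pot1a, Pot1b, Tert, Dkc1 and Atrx). The full CRE stood in the windows of Pot1a and Tinf2, against 1.79% of all windows. The Atrx window held 4 CCAAT matches, and CCAAT stood in 5 of the 9 members' windows against 37.4% of all windows. The GC box stood in 5 of 9 (35.7% of all), the ETS core in that of Pot1b alone among the 9 (3.89% of all), and the E-box in 0 of 9 (7.15% of all). These are letter matches to motifs chosen after the sequences had been seen, so counts beside the shares are a description only. Nothing in the data measured binding.

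Transcripts of the shelterin genes were counted in every library, and no shelterin gene passed the test in any of the 3 comparisons. Of all tested genes, 5.19% were called in GemC1 against GFP, 4.35% in Mcidas against GFP and 0.0511% in GemC1 against Mcidas. For 7 genes, 0 calls lie near those shares. Over the 7 genes, log2 fold changes ran from -0.52 to 0.15 in GemC1 against GFP and from -0.45 to 0.23 in Mcidas against GFP. Atrx was the only one of the 10 members called, lower in GemC1 than in GFP, by a log2 fold change of -0.31 ± 0.08 (SE). These calls use edgeR's quasi-likelihood test across 19572 genes with Benjamini-Hochberg adjustment, at an adjusted p under 0.05. That share of 10.0% of members compares with 5.19% of all tested genes called in either direction in GemC1 against GFP, and with 1.32% called lower. The count of members called higher was 0 by edgeR and by DESeq2 (3.86% of all genes by edgeR). Whether fewer cells of a kind or less RNA per cell lies behind a lower level cannot be told apart in sorted bulk cells.

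**Figure D1:**
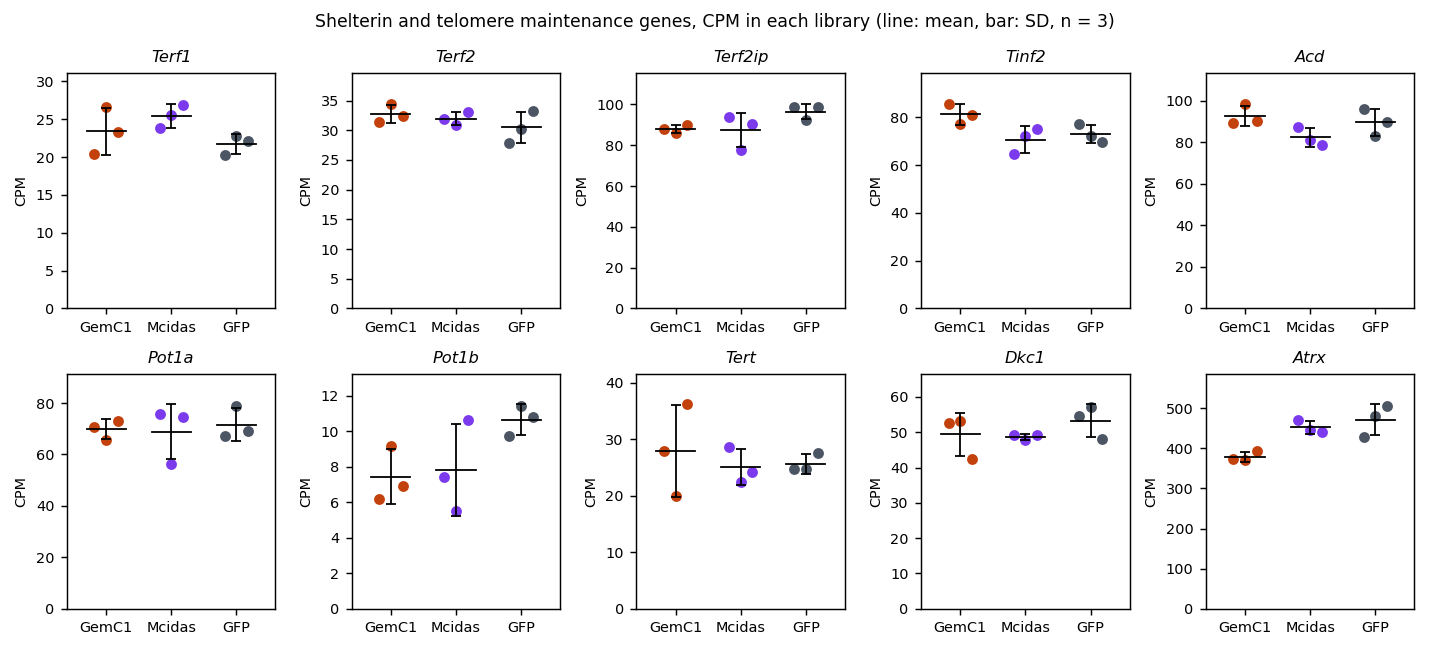
Level of each of the 10 genes in CPM in the 3 GemC1, 3 Mcidas and 3 GFP libraries (points), with the mean (line) and SD (bar) of each group. Every axis starts at 0. The points of all groups overlap for Terf2, Pot1a, Tert and Dkc1, and a pair of groups lies apart for each of the other genes, such as Atrx with GemC1 (371 to 393 CPM) under GFP (429 to 505 CPM).

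The proteins that bind double-stranded telomeric repeats come first. Terf1 (TRF1, chromosome 1, 15805646 to 15844052, plus strand) binds the repeats and governs their length and replication. It stood at 20.4, 26.6 and 23.3 CPM in GemC1 libraries, at 23.8, 25.6 and 26.9 CPM in Mcidas libraries, and at 20.3, 22.8 and 22.2 CPM in GFP libraries. The Mcidas libraries lay above all GFP libraries and the GemC1 libraries overlapped both. The log2 fold change was 0.11 ± 0.13 in GemC1 against GFP (SE, edgeR adjusted p = 0.699) and 0.23 ± 0.13 in Mcidas against GFP (adjusted p = 0.537).

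Terf2 (TRF2, chromosome 8, 107069400 to 107096547, minus strand) folds and guards the chromosome end, and its loss in mouse cells leads to end fusions. It had 31.4, 34.4 and 32.5 CPM in GemC1, 31.9, 30.9 and 33.1 CPM in Mcidas, and 27.9, 30.3 and 33.3 CPM in GFP libraries. The groups overlapped, with log2 fold changes of 0.10 ± 0.10 (SE) in GemC1 against GFP and 0.07 ± 0.10 in Mcidas against GFP. Terf2ip (RAP1, chromosome 8, 112011398 to 112020528, plus strand) is carried to telomeres by Terf2. It had 87.9, 85.8 and 89.8 CPM in GemC1, 93.8, 77.9 and 90.6 CPM in Mcidas, and 98.5, 92.2 and 98.8 CPM in GFP libraries. All GemC1 libraries lay under all GFP libraries, by a log2 fold change of -0.14 ± 0.09 that did not pass the test (edgeR adjusted p = 0.421). Per kilobase, the log2 ratio of Terf1 to Terf2 was -0.50 ± 0.13 in GemC1, -0.33 ± 0.08 in Mcidas and -0.49 ± 0.09 in GFP libraries (SD, n = 3 each). These groups overlapped. That of Terf2 to Terf2ip, not among the ratios planned, was -1.31 ± 0.09, -1.34 ± 0.11 and -1.56 ± 0.13 in the same order. Its factor libraries lay narrowly above GFP, the nearest at -1.45 beside -1.46. Tinf2 to Acd, also unplanned, overlapped between the groups. These ratios depend on the length used, were given no test, and pairs of genes were not counted for a share.

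Tinf2 and Acd link the double-strand binders to the single-strand binders. Tinf2 (TIN2, chromosome 14, 55674689 to 55681820, minus strand) bridges TRF1, TRF2 and TPP1. It had 85.6, 77.2 and 80.9 CPM in GemC1, 64.7, 72.2 and 75.3 CPM in Mcidas, and 77.3, 72.2 and 69.8 CPM in GFP libraries. GemC1 lay above Mcidas in every library, and overlapped GFP. The log2 fold change was 0.15 ± 0.09 against GFP (SE, edgeR adjusted p = 0.375) and 0.20 ± 0.09 against Mcidas (adjusted p = 0.364).

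Acd (TPP1, chromosome 8, 105695860 to 105701102, minus strand) tethers POT1 and recruits telomerase. It had 89.4, 98.5 and 90.1 CPM in GemC1, 87.4, 81.3 and 78.6 CPM in Mcidas, and 95.9, 83.0 and 89.8 CPM in GFP libraries. GFP overlapped both other groups, while all GemC1 libraries lay above all Mcidas libraries (log2 fold change 0.17 ± 0.09, SE, edgeR adjusted p = 0.436). Exons of both genes overlap a gene on the opposite strand. Tinf2 shares 1540 bases, 31.2% of its merged exons, with Gmpr2, and Acd shares 1208 bases, 33.3%, with Carmil2. Neither kit used marks the strand and the strand setting of the counting is not given, so reads in the shared stretches are uncertain. Gmpr2 had 60.0, 59.1 and 52.2 CPM in GemC1 against 52.0, 48.7 and 50.6 CPM in GFP libraries, and Carmil2 had 7.90, 12.3 and 9.80 CPM against 9.97, 8.67 and 10.3 CPM. Neither neighbour was called.

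Pot1a and Pot1b bind the single-stranded overhang. Mouse carries both where human has a single POT1 gene, and work in mouse cells gave Pot1a the repression of damage signalling by ATR and Pot1b the control of end trimming. Pot1a (chromosome 6, 25743737 to 25809246, minus strand) had 70.7, 65.7 and 73.2 CPM in GemC1, 75.5, 56.4 and 74.4 CPM in Mcidas, and 67.0, 78.9 and 69.1 CPM in GFP libraries. The groups overlapped, at log2 fold changes of -0.04 ± 0.12 (SE) in GemC1 against GFP and -0.06 ± 0.12 in Mcidas against GFP.

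Pot1b (chromosome 17, 55651951 to 55712628, minus strand) was the lowest member, with 176 to 466 counts per library. It had 6.20, 9.18 and 6.91 CPM in GemC1, 7.43, 5.48 and 10.6 CPM in Mcidas, and 9.73, 11.4 and 10.8 CPM in GFP libraries. All GemC1 libraries lay under all GFP libraries, and Mcidas overlapped both. Its log2 fold changes had the largest size among the 10 members in both comparisons with GFP, -0.52 ± 0.24 in GemC1 (SE, edgeR adjusted p = 0.253) and -0.45 ± 0.24 in Mcidas (adjusted p = 0.504), and neither passed the test. The 95% interval in GemC1 against GFP ran from 0.487 to 0.998 of the GFP level. In Mcidas against GFP the value was -0.25 without Mcidas replicate 2 and -0.72 without Mcidas replicate 3.

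Within a library and per kilobase of merged exons, Pot1a stood at 4.35 to 6.93 times Pot1b in GemC1, 4.26 to 6.26 times in Mcidas and 3.89 to 4.19 times in GFP libraries. The log2 ratio was 2.53 ± 0.36 in GemC1, 2.45 ± 0.31 in Mcidas and 2.03 ± 0.06 in GFP (SD, n = 3 each). Every GemC1 and Mcidas ratio lay above the GFP range, but narrowly. GemC1 replicate 2 had 2.12 and Mcidas replicate 3 had 2.09, beside 2.07 in GFP replicate 2. Of single genes, 24.9% did not overlap between GemC1 and GFP and 19.5% between Mcidas and GFP, in either direction, and pairs of genes were not counted. With the longest coding transcript as the length, an alternative added after the values were seen, the ratio was 8.01 to 12.7 in GemC1, 7.84 to 11.5 in Mcidas and 7.15 to 7.70 in GFP libraries, the same shift in every library. The size of the ratio therefore depends on the length used. The SD was far smaller in GFP libraries than in the others, and the ratio was given no test. In annotated transcripts the longest run of identical bases between the pair was 41, and they shared 0 words of 75 bases, the read length, so exact reads of these transcripts do not match both genes.

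Summed per kilobase, shelterin transcripts came to 81.4 ± 1.19 CPM per kilobase in GemC1, 76.6 ± 3.48 in Mcidas and 80.6 ± 1.60 in GFP libraries (SD, n = 3 each). GemC1 and GFP libraries overlapped. All 3 Mcidas libraries, at 72.59 to 78.84, lay under the lowest GFP library at 78.90, by a very small gap. Of single genes, 8.87% lay apart in that direction. The sum depends on the length used and includes Acd and Tinf2, at 30.8% and 16.7% of it in Mcidas replicate 1, whose reads in shared stretches are uncertain. In GemC1 against GFP the median log2 fold change of the 7 genes was 0.05, and in Mcidas against GFP it was -0.06, beside medians of -0.00038 and -0.03 over all tested genes.

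The telomerase genes follow. Tert (chromosome 13, 73626911 to 73649843, plus strand) encodes the reverse transcriptase that adds the repeats. It was counted in all 9 libraries, with 558 to 1100 counts each. It had 27.8, 19.9 and 36.2 CPM in GemC1, 28.6, 22.4 and 24.2 CPM in Mcidas, and 24.6, 24.6 and 27.6 CPM in GFP libraries. The GemC1 libraries held both the lowest and the highest value of the 9. The log2 fold change was 0.13 ± 0.18 in GemC1 against GFP (SE, edgeR adjusted p = 0.768) and -0.03 ± 0.18 in Mcidas against GFP (adjusted p = 0.974). Without GemC1 replicate 3, the highest library, the value in GemC1 was -0.11, and without replicate 2, the lowest, it was 0.33.

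Dkc1 (chromosome X, 75095854 to 75109777, plus strand) encodes dyskerin, which binds and stabilises the telomerase RNA and also modifies ribosomal RNA. It had 52.7, 53.2 and 42.4 CPM in GemC1, 49.2, 47.7 and 49.1 CPM in Mcidas, and 54.7, 57.02 and 48.0 CPM in GFP libraries, and the groups overlapped. The log2 fold change was -0.11 ± 0.11 in GemC1 against GFP (SE) and -0.13 ± 0.11 in Mcidas against GFP. Terc, the telomerase RNA itself, had between 1 and 7 counts in each library and was not tested. It mostly lacks the poly(A) tail from which the amplification kit primes.

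Atrx (chromosome X, 105797615 to 105929403, minus strand) was the longest and most counted member. It had 374, 371 and 393 CPM in GemC1, 471, 445 and 441 CPM in Mcidas, and 429, 479 and 505 CPM in GFP libraries. The GemC1 libraries lay under all others and the Mcidas libraries overlapped GFP. The level in GemC1 was 0.805 of that in GFP (95% interval 0.715 to 0.906, edgeR adjusted p = 0.0399). The log2 fold change was -0.06 ± 0.08 in Mcidas against GFP (SE, adjusted p = 0.862). Set directly against Mcidas, GemC1 had -0.26 ± 0.08, which did not pass the test (adjusted p = 0.219).

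The Atrx call was lost in 9 of 17 alternatives, in all of which the sign stayed negative. It was lost without GemC1 replicate 1, 2 or 3, without Mcidas replicate 2, and without GFP replicate 2 or 3, with adjusted p between 0.0638 and 0.196. It was also lost with the replicate number as a block (adjusted p = 0.0715) and with only both groups compared in the fit (adjusted p = 0.0725). The size moved most when a GC content trend was taken out of every library, to -0.14 ± 0.07 (SE, edgeR adjusted p = 0.285).

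**Figure D2:**
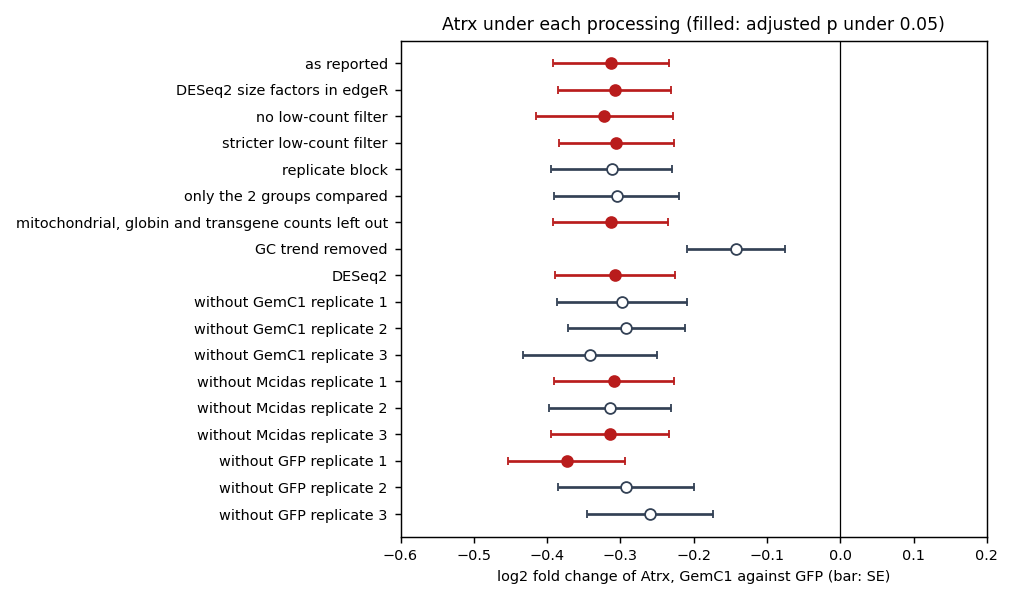
Log2 fold change of Atrx in GemC1 against GFP (x axis, bar: SE) under the processing as reported and under 17 alternatives (rows). Filled points passed an adjusted p of 0.05. Values lie between -0.37 and -0.14, and the value nearest 0 is the one with the GC trend removed.

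Several measures moved beside Atrx. The 10 multiciliated cell markers summed to 519 to 656 CPM in GemC1, 501 to 917 CPM in Mcidas and 84.3 to 102 CPM in GFP libraries, and 9 of the 10 were called higher in each factor against GFP. At 39.5% GC its longest transcript falls in the lowest of 5 equal bins of tested genes by GC, where the median log2 fold change in GemC1 against GFP was -0.16, against 0.08 in the highest bin. Terf1 and Pot1a lie in the same bin as Atrx, and with the GC trend removed Terf1 had 0.34 ± 0.14 (SE, edgeR adjusted p = 0.204). The summed level of 10 excitatory neuron markers was 4588 to 5063 CPM in GemC1, 4857 to 5665 CPM in Mcidas and 5595 to 6577 CPM in GFP libraries. All 10 were counted in each group, 2 were called lower in GemC1 against GFP, and 0 in Mcidas against GFP.

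The 14 microglia and macrophage markers summed to 60.7 to 93.95 CPM in GemC1, 34.7 to 59.3 CPM in Mcidas and 22.7 to 35.0 CPM in GFP libraries, none of them at 0 in a whole group. Of 13 tested, 9 were called higher in GemC1 and 2 in Mcidas, each against GFP. The 12 cycling cell markers summed to 1211 to 1368 CPM in GemC1, 1214 to 1376 CPM in Mcidas and 1090 to 1331 CPM in GFP libraries. The part of GC content, multiciliated cells, neurons or microglia in the Atrx value was not tested, beyond the removal of the GC trend.

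Atrx and Dkc1 are X-linked and the markers of embryo sex varied between libraries. Xist, made from the inactive X of females, had 157, 366 and 182 CPM in GemC1, 274, 320 and 103 CPM in Mcidas, and 295, 285 and 298 CPM in GFP libraries. The Y-linked Ddx3y had 32.9, 5.79 and 19.96 CPM, then 31.4, 24.9 and 55.9 CPM, then 11.3, 32.6 and 38.4 CPM in the same order of groups. Both were counted in every library, and their ranges overlapped between GemC1 and GFP. The part of embryo sex in the Atrx and Dkc1 values was not tested.

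By the measure of likeness used, Pearson's r of log2 CPM over the 9 libraries, the 3 genes nearest to Atrx among 11142 were Fnbp1l (r = 0.985), Gm37494 (r = 0.983) and Arid4b (r = 0.974). Fnbp1l had 233 ± 2.65 CPM in GemC1, 296 ± 17.0 CPM in Mcidas and 317 ± 34.5 CPM in GFP libraries (SD, n = 3 each). Their longest transcripts had 34.0%, 38.6% and 40.7% GC, and 143 genes had an r over 0.9. Differences between libraries in depth and base composition, and the group difference itself, can bear on many genes at once, and the values are a description.

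**Figure D3:**
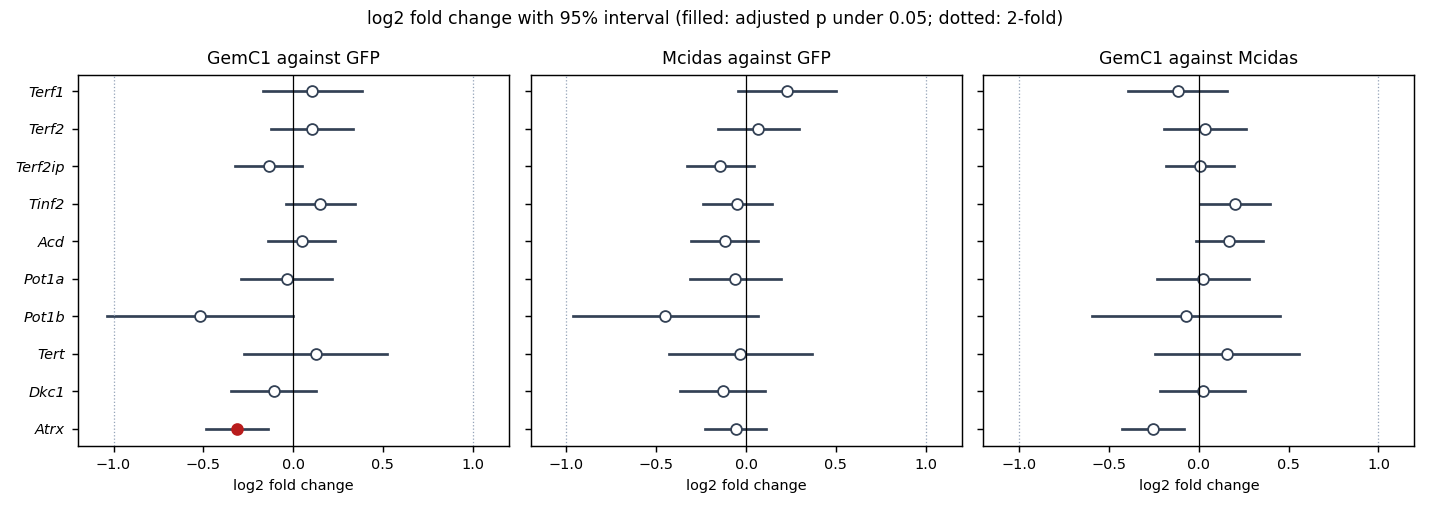
Log2 fold change (x axis) with its 95% interval (line) for the 10 genes (rows) in each of the 3 comparisons, named above the panels. Filled points passed an adjusted p of 0.05, and dotted lines mark a 2-fold change. Atrx in GemC1 against GFP, at -0.31, is the filled point, and the widest intervals are those of Pot1b.

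In GemC1 against GFP, 5 of 10 log2 fold changes were positive (49.9% of all tested genes), and their median was 0.01 (-0.00038 over all tested genes). Their median size was 0.12, against 0.21 over all tested genes, which were not matched to the members for level. The unadjusted p was under 0.05 for 2 members, Pot1b and Atrx, beside 19.5% of all genes. Libraries did not overlap for 3 members, Terf2ip, Pot1b and Atrx, all lower in GemC1, against 11.7% of all genes separated in that direction, and 0 members were apart in the other (13.2% of all genes). The 95% interval stayed within 1.5-fold either way for 9 of the 10, all but Pot1b.

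In Mcidas against GFP 0 members were called by edgeR, 0 by DESeq2 and 0 at an unadjusted p under 0.05, where 4.35% of all genes were called (4.03% higher and 0.327% lower) and 12.6% had an unadjusted p under 0.05. Of the 10, 2 log2 fold changes were positive, Terf1 and Terf2 (45.0% of all tested genes were positive). Tinf2, Pot1a, Tert and Atrx changed sign in 2 of 17 alternatives each, and the other negative values stayed negative. The median of the 10 was -0.06 (-0.03 over all genes) and their median size 0.09, against 0.16 over all genes, again not matched for level. Libraries of the groups were apart for Terf1 alone among the members, which was higher in Mcidas, where 10.7% of all genes were separated in that direction and 8.87% in the other. The interval stayed within 1.5-fold for 9 of 10, again all but Pot1b, and within 2-fold for all 10. With each of the 9 libraries left out in turn, 0 members were called as well. Of all genes, 557 to 951 were then called higher and 29 to 99 lower.

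GemC1 against Mcidas also tests whether the differences of these groups from GFP differ. In this comparison a batch, if the year number in the Mcidas names marks one, cannot be told apart from the factors. There edgeR called 0 members (0.0511% of all genes were called, 0.0153% higher and 0.0358% lower), and 2 had an unadjusted p under 0.05, Tinf2 and Atrx (13.0% of all genes). DESeq2 called 1 member, Atrx at -0.27 ± 0.08 (SE, adjusted p = 0.0424), where it called 195 of all genes higher and 304 lower. Libraries did not overlap for Tinf2 and Acd, higher in GemC1 (9.07% of all genes), and for Atrx, lower in GemC1 (7.64% of all genes). Both comparisons with GFP share the same 3 GFP libraries, so their values for a gene are not independent.

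Per kilobase of merged exons, which allows genes to be set beside each other, the GFP libraries gave the order Acd (24.7 ± 1.79 CPM per kilobase), Atrx (21.6 ± 1.78), Terf2ip (19.5 ± 0.76), Tinf2 (14.8 ± 0.78), Dkc1 (12.9 ± 1.13), Pot1a (8.26 ± 0.73), Terf2 (6.63 ± 0.58), Terf1 (4.72 ± 0.28), Tert (4.47 ± 0.30) and Pot1b (2.02 ± 0.16; SD, n = 3 each). The ranges of Acd and Atrx overlapped, as did those of Atrx and Terf2ip and those of Terf1 and Tert, and the other neighbours stood apart. Acd lay at the 86.4th percentile of tested genes, Tert at the 50.5th and Pot1b at the 37.9th. With the longest coding transcript as the length, an alternative added after the values were seen, 4 members changed rank over all libraries. Atrx then came first at 42.3 CPM per kilobase, with Acd at 28.0, and Pot1a, at 22.2, passed Dkc1.

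**Figure D4:**
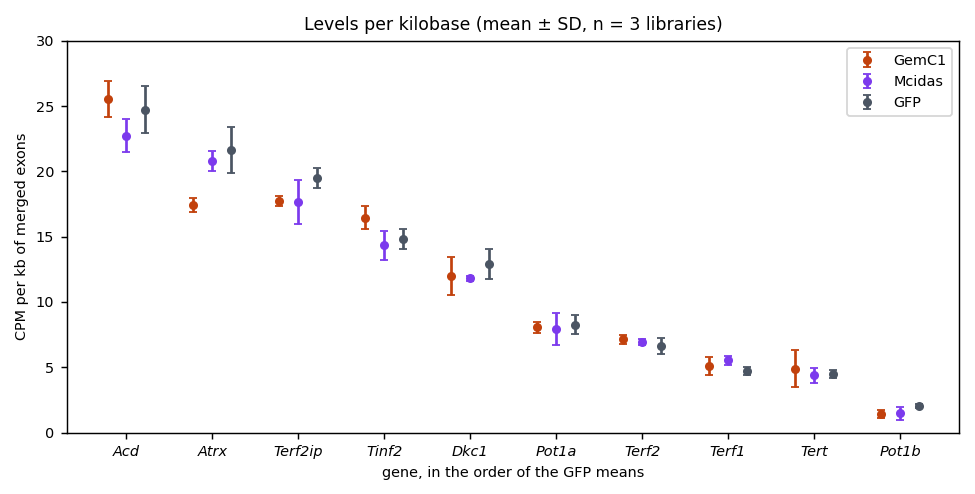
Level of each gene in CPM per kilobase of merged exons (y axis, from 0) in GemC1, Mcidas and GFP libraries (mean and SD, n = 3 each), with genes in the order of their GFP means. Acd is highest at 24.7 and Pot1b lowest at 2.02 in GFP, and Atrx shows GemC1 (17.4) under GFP (21.6).

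Around the members, 73 further telomere genes were listed, of which 71 were tested (Terc and Sp100 were not). In GemC1 against GFP 3 rose and 1 fell, with a median log2 fold change of 0.04 (5.19% of all genes were called), and in Mcidas against GFP 3 rose and 1 fell, with a median of 0.01 (4.35% of all genes were called). Both counts lay near those shares. DESeq2 called 6 in each, adding Ruvbl1 and Rif1 in GemC1 and Dna2 and Wrap53 in Mcidas. The shares above are those of edgeR. Of all genes DESeq2 called 1159 higher and 658 lower in GemC1, and 1077 higher and 112 lower in Mcidas. Ruvbl1 and Wrap53 are named here after their values were seen. The medians over all genes were -0.00038 and -0.03. In GemC1 against Mcidas edgeR called 0 of the 71, and 7 had an unadjusted p under 0.05 (13.0% of all genes). DESeq2 called 1, Rif1, where it called 195 of all genes higher and 304 lower. Of 12 tested genes of telomerase assembly, 1 rose and 1 fell in each factor against GFP. Of all genes, 3.86% rose and 1.32% fell in GemC1, and 4.03% rose and 0.327% fell in Mcidas. Ruvbl2, an ATPase needed to assemble telomerase and many other complexes, had 171, 176 and 153 CPM in GemC1, 134, 162 and 191 CPM in Mcidas, and 103, 89.3 and 94.4 CPM in GFP libraries.

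Every Ruvbl2 value of both factors lay above every GFP value. The log2 fold change was 0.81 ± 0.12 in GemC1 (SE, edgeR adjusted p = 0.0013) and 0.76 ± 0.12 in Mcidas (adjusted p = 0.00152), called in all 17 alternatives of each comparison. Nvl, an ATPase of ribosome assembly that also binds TERT, had 41.2, 48.9 and 35.9 CPM in GemC1, 52.6, 43.7 and 47.3 CPM in Mcidas, and 64.0, 71.5 and 76.8 CPM in GFP libraries. It was lower in all factor libraries, at log2 fold changes of -0.56 ± 0.12 in Mcidas against GFP (edgeR adjusted p = 0.0186), and by -0.75 ± 0.12 in GemC1 against GFP (adjusted p = 0.00323). The call in GemC1 held in all 17 alternatives. That in Mcidas was lost in 5, with the replicate block (adjusted p = 0.0514) and without Mcidas replicate 2 or 3 or GFP replicate 2 or 3 (0.0763 to 0.112).

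Of 14 genes of the CST complex and end processing, 2 rose in GemC1 against GFP (3.86% of all genes) and 1 in Mcidas against GFP (4.03% of all genes). Pola2, a subunit of the polymerase that fills in the telomeric C-strand and starts DNA synthesis elsewhere, had 52.9, 50.2 and 58.0 CPM in GemC1, 55.9, 53.6 and 66.8 CPM in Mcidas, and 41.9, 37.5 and 31.4 CPM in GFP libraries. Both factor groups lay above GFP, by 0.54 ± 0.12 in GemC1 (SE, edgeR adjusted p = 0.0259) and 0.67 ± 0.12 in Mcidas (adjusted p = 0.00614, called in 17 of 17 alternatives). In GemC1 the Pola2 call was lost in 5 of 17, with the replicate block (adjusted p = 0.0557) and without GemC1 replicate 1 or 3 or GFP replicate 2 or 3 (0.0602 to 0.124). Dna2, a nuclease and helicase of replication and telomere ends, had 40.6, 40.9 and 34.4 CPM in GemC1, 36.5, 37.8 and 39.9 CPM in Mcidas, and 30.9, 24.7 and 28.9 CPM in GFP libraries. It rose by 0.46 ± 0.12 in GemC1 against GFP (edgeR adjusted p = 0.0417), and had 0.43 ± 0.12 in Mcidas against GFP (adjusted p = 0.0597), which DESeq2 called. The Dna2 call was lost in 8 of 17 alternatives, with the replicate block (adjusted p = 0.0833), with only both groups compared in the fit (0.0621), and without GemC1 replicate 1 or 2, Mcidas replicate 2 or 3, or GFP replicate 2 or 3 (0.0522 to 0.172).

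Of 14 regulators and telomere-binding proteins, 1 rose in Mcidas against GFP (4.03% of all genes). In GemC1 against GFP edgeR called 0 (5.19% of all genes), with 3 at an unadjusted p under 0.05 (19.5% of all genes). The gene that rose was Rif1, found at telomeres in yeast and in mammals a regulator of replication timing and break repair. Rif1 had 184, 188 and 230 CPM in GemC1, 257, 273 and 299 CPM in Mcidas, and 148, 176 and 154 CPM in GFP libraries, and the 3 groups did not overlap. Its log2 fold change was 0.79 ± 0.10 in Mcidas against GFP (SE, edgeR adjusted p = 0.000429) and 0.33 ± 0.10 in GemC1 against GFP (adjusted p = 0.093), where DESeq2 called it (adjusted p = 0.0423), as did edgeR with no low-count filter (0.0371) and with the GC trend removed (0.50, adjusted p = 0.0244). The direct difference of GemC1 from Mcidas was -0.46 ± 0.10 (adjusted p = 0.137), called by DESeq2 (-0.47, adjusted p = 0.00542) and by edgeR with no low-count filter (adjusted p = 0.00538). None of the 12 genes around ATRX, DAXX and histone H3.3, and none of the 19 genes of end protection and recombination, was called by edgeR or by DESeq2 in any of the 3 comparisons. By edgeR, 5.19% of all genes were called in GemC1 against GFP, 4.35% in Mcidas against GFP and 0.0511% in GemC1 against Mcidas. For lists of this size, 0 calls lie near those shares. At an unadjusted p under 0.05 the 12 genes gave 0 in GemC1 against GFP, 1 in Mcidas against GFP and 1 in GemC1 against Mcidas, and the 19 genes gave 1, 3 and 1 in the same order. The shares of all genes at that p were 19.5%, 12.6% and 13.0%.

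**Figure D5:**
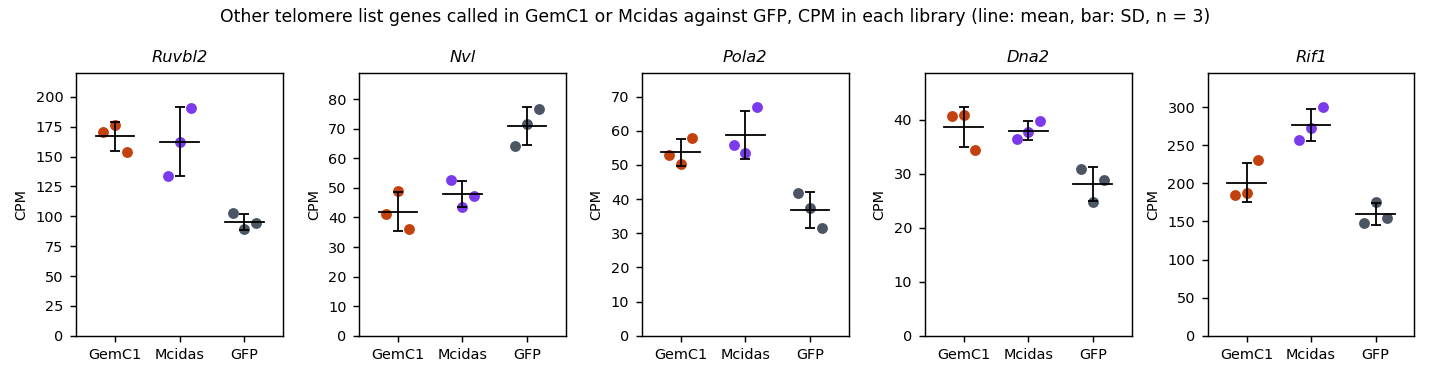
Level in CPM (y axis, from 0) of the 5 further telomere genes called in GemC1 or Mcidas against GFP, in each library (points), with the mean (line) and SD (bar) of 3 libraries. Ruvbl2, Pola2, Dna2 and Rif1 have their GFP points lowest, and Nvl has its GFP points highest (64.0 to 76.8 CPM).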

How the data were processed

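RNA was amplified and sequenced from 9 libraries, 3 per group. The authors deposited whole-number counts for Ensembl genes, not normalized. Tools in the submitters' processing notes are DESeq2 1.8.1, STAR 2.5.2b and HTSeq 0.5.3, and the build is mm10; which tool made which step is not given. Strand setting and annotation release: not given in the sources used here.

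Of 53379 identifiers, 53274 matched GENCODE M21 (GRCm38), used for symbols, positions, exon length and GC. Libraries were scaled by TMM, 19572 genes were kept by filterByExpr (minimum count 10), and all 9 libraries entered 1 quasi-likelihood fit with edgeR 4.0.16 in R 4.3.3 (robust, group as the only term, two-sided), tested on simulated data. CPM are on TMM-scaled totals, and SE and 95% intervals come from the quasi-likelihood F. A floor of 3 counts was 0.0737 to 0.13 CPM. Intervals cover only these libraries' spread, since the labels do not say that replicates were separate litters, and amplified reads are not independent molecules. No 2 libraries of a group agreed within counting noise (chi-square over its degrees of freedom at least 14.1). Named genes were the 10 members, other telomere list genes called in a comparison, and the 3 genes most like a called member (average log2 CPM at least 3).

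Alternatives were DESeq2 1.42.0, its size factors, other low-count filters, the replicate number as a block, only the groups compared, no mitochondrial, globin or transgene counts, removal of a GC trend, and each library left out. The members and lists were chosen with earlier results of these data known, and the promoter motifs after the sequences had been seen.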

Additional observations from a re-analysis of the deposited data

How the results depend on the processing

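With each of the 9 libraries left out in turn, GemC1 against GFP gave 443 to 877 genes higher and 32 to 267 lower, 0 to 1 members lower and 2 to 4 other telomere genes called. Mcidas against GFP gave 557 to 951 genes higher, 29 to 99 lower and 3 to 5 other telomere genes. GemC1 against Mcidas gave 3 to 5 higher and 1 to 8 lower. Members called lower in GemC1 against GFP numbered 0 with the replicate block, with only the groups compared, and with the GC trend removed. Genes called lower in GemC1 against GFP numbered 557 without a low-count filter, 147 with the replicate block and 658 with DESeq2, which called 1159 higher, and the block left 2 other telomere genes. Genes called lower in Mcidas against GFP numbered 123 without a filter and 112 with DESeq2. In GemC1 against Mcidas, counts higher and lower were 66 and 129 without a filter and 195 and 304 with DESeq2, each with 1 other telomere gene, and DESeq2 called 1 member. There the stricter filter left 1 gene higher, and lower calls were 3 with the replicate block, 2 with only the groups compared and 3 without mitochondrial, globin and transgene counts. With the longest coding transcript as the length, rank per kilobase changed for 4 members, and the mean log2 ratio of Pot1a to Pot1b was 3.41 in GemC1, 3.33 in Mcidas and 2.91 in GFP libraries. The ratio shift follows from the lengths alone; the cause of the other shifts was not tested. The labels do not say whether replicate numbers pair the libraries. Deviations of same-numbered libraries correlated at -0.07 to 0.05, and those of differently numbered libraries at -0.08 to 0.12. Correlations over all genes cannot exclude a pairing that bears on some genes. The block is given as an alternative beside the main fit. Terc, at 1 to 7 counts per library, was too low to be tested.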
